A study of Saccharomyces cerevisiae with 95 samples.

Results

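The 10 genes described here encode enzymes that remove peroxides and superoxide in budding yeast: TSA1, AHP1, TRX2, TRR1, SOD1, SOD2, CTT1, CTA1, GPX2 and CCP1. They were chosen by name. For each general transcription factor, a gene was given the binding site whose midpoint lay nearest to its annotated start, from 500 bp upstream to 200 bp downstream. The rule found 35 sites for 9 of the 10 genes, among 20232 sites of 5 factors.

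The data came from competition ChIP-seq in diploid W303 yeast carrying 2 tagged copies of a factor. The Myc-tagged copy was made from its own promoter throughout, and the HA-tagged copy was made from the GAL1 promoter after galactose was added to cultures growing in raffinose. The factors were TBP, TFIIA (tagged on Toa1), TFIIB, TFIIE (tagged on Tfa1) and TFIIF (tagged on Tfg2), each in its own strain, and for the multi-subunit factors a copy of every subunit was put under GAL1. Myc and HA libraries were made at 8 times after galactose, the first at 10 min and the last at 120 min (between them 20, 25, 30 and 40 min, then 60 and 90 min), with 1 library per factor, tag and time, and of the Myc libraries made at 0 min that of TFIIB was used. All groups shared the change from raffinose to galactose, so a change of a promoter with the carbon source and the exchange of the copies are read from the same time course. Each time point had a single library. Errors and p-values measure the scatter of the 8 time points about a trend, moderated across sites, not the spread between cultures.

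Peroxiredoxins reduce peroxides through a reactive cysteine, thioredoxin reduces the peroxiredoxin, and thioredoxin reductase renews thioredoxin with NADPH. Superoxide dismutases turn superoxide into hydrogen peroxide, which catalases and other peroxidases then break down. In yeast many of these genes are under the factors Yap1, Skn7, Msn2 and Msn4, and several mitochondrial ones respond to respiration and carbon source. W303 strains carry an altered YBP1 allele that weakens the Yap1 response to peroxide. General transcription factors assemble at the promoter with RNA polymerase II, and in a competition ChIP the HA copy replaces the Myc copy at a site as bound molecules leave and new ones arrive.

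The sites fell close to the starts of the genes. TBP had 7 sites, TFIIA 6, TFIIB 8, TFIIE 7 and TFIIF 7. AHP1, TRX2, SOD1 and SOD2 had a site of each factor. TSA1 lacked a TFIIA site, and TRR1 lacked a TFIIE site, because the merged interval over the start was 1896 bp and 2084 bp wide and its midpoint lay 491 and 551 bp downstream. CTA1 had sites of TBP, TFIIB and TFIIF, and CCP1 had sites of TFIIA, TFIIB and TFIIE. GPX2 had a TFIIE site alone. CTT1, the cytosolic catalase T, had no site of any factor, and the nearest interval lay 1926 to 1952.5 bp downstream of its start. Intervals came from peaks called on early Myc libraries, so the lack of a site does not show a lack of binding.

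**Figure D1:**
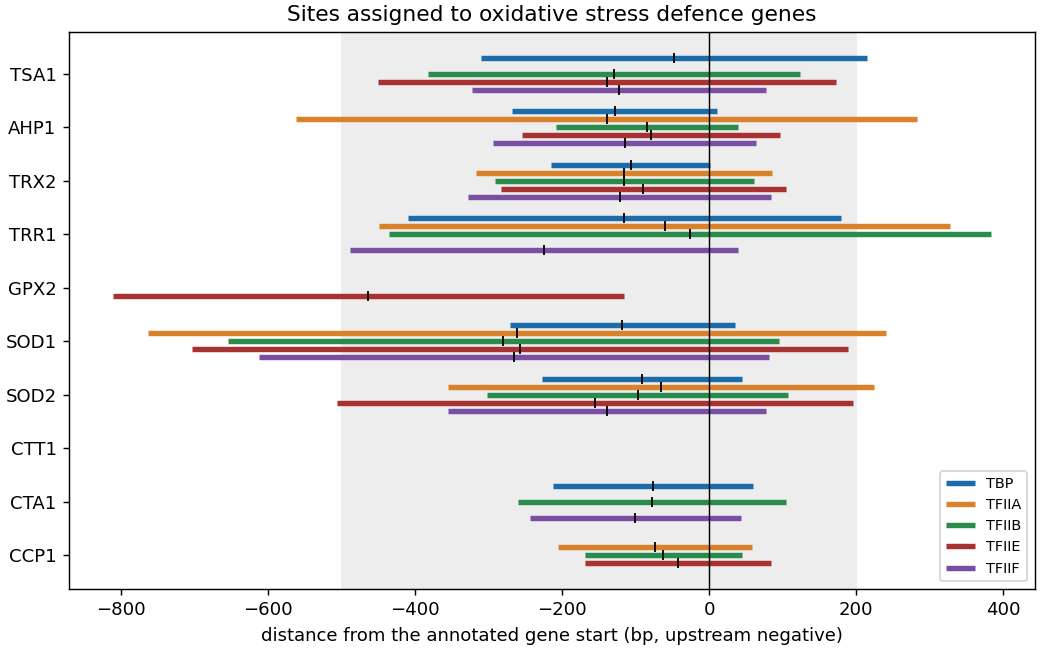
Position of each member site against the annotated gene start. The x axis is the distance in bp with upstream negative, each coloured bar is the full width of the site of one factor, the tick on it is the midpoint, and the grey band is the window from 500 bp upstream to 200 bp downstream. GPX2 has a single TFIIE site and CTT1 has none.

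Neighbouring genes matter for SOD1 and GPX2. The SOD1 sites of TFIIA, TFIIB, TFIIE and TFIIF were 695 to 1005 bp wide, and their midpoints lay 257.5 to 280 bp from SOD1 and 287 to 309.5 bp from the start of the divergent gene ADO1. The TBP site of SOD1 was 306 bp wide with a midpoint 118 bp upstream of SOD1. The GPX2 site of TFIIE had its midpoint 463.5 bp from GPX2 and only 271.5 bp from ALG7, so it cannot be assigned to GPX2 alone. Reads from such sites can come from either promoter.

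The promoter stretches of 5 genes are shown: TSA1, SOD1, SOD2 and CTA1 for the steepest called slopes among the members, and TRX2 for its pair of Yap1 elements. Each runs from 300 to 91 bases upstream of the start codon, from the RefSeq R64 genome (sacCer3). Capitals mark matches on either strand to TATAAA or the 8-letter TATA consensus, to the Yap1 element TTACTAA, to the stress response element CCCCT and to CCAAT, the Hap2/3/4/5 element.
TSA1, chrXIII:219838-220047, plus strand: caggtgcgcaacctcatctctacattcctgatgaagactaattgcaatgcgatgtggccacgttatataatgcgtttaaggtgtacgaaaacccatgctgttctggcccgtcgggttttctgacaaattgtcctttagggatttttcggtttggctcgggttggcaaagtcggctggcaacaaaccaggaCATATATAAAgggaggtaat
TRX2, chrVII:913318-913527, minus strand: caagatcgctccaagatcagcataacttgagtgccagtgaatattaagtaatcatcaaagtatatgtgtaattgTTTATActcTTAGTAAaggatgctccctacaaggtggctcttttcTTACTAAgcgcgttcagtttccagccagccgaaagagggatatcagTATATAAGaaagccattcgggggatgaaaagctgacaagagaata
SOD1, chrX:623105-623314, minus strand: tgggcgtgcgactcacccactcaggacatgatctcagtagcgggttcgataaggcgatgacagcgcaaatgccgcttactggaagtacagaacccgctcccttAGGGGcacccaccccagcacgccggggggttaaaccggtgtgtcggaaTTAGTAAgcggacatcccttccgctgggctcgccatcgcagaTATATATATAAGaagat
SOD2, chrVIII:123681-123890, minus strand: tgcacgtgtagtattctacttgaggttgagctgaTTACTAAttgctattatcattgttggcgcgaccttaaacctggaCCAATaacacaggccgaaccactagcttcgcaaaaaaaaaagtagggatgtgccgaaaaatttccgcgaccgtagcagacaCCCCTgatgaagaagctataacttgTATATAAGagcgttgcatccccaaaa
CTA1, chrIV:969771-969980, minus strand: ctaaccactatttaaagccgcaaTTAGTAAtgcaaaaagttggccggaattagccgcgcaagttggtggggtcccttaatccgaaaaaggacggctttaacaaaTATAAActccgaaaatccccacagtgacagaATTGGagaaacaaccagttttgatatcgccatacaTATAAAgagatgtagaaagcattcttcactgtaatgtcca

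Over the full window of 300 bases, TATAAA was present in 6 of the 10 genes and in 48.2% of 6001 promoters searched. The 8-letter consensus, spelled as TATAAAAA, TATAAAAG, TATAAATA, TATAAATG, TATATAAA, TATATAAG, TATATATA and TATATATG, was present in 6 of 10 genes and 41.0% of promoters. It overlaps TATAAA and was added after the promoters had been seen. The Yap1 element was present in 5 of 10 genes, TRX2, GPX2, SOD1, SOD2 and CTA1, and in 7.82% of promoters. TRX2 held 2 of them, 217 and 181 bases upstream. CCCCT was found in 7 of 10 genes and 22.2% of promoters, CCAAT in 5 of 10 and 41.8%, and the Hap1 motif in 0 of 10 and 0.133%. Of the 28 sites at genes with a TATA match, 27 had a match inside the site, and the exception was the GPX2 site of TFIIE. These matches describe letters and do not show that a factor binds there.

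Total counts in sites ran from 2740185 to 19483568 per library, and counts at a single member site ran from 84 to 8737. Values below are TMM-scaled CPM per kb of site, and slopes are log2 changes per doubling of time relative to the typical site of the factor. In TFIIE Myc libraries the SD across sites of log2 counts per bp, a measure of how far sites stand out, was 0.66 at 10 min and 0.31 at 120 min, while rDNA sites took 6.09% and 26.3% of counts. In TFIIF HA libraries mitochondrial sites took 61.8% of counts at 10 min and 60.4% at 25 min, against 4.48% at 60 min. The SD across sites in these TFIIF HA libraries was 0.65, 0.28, 0.45, 0.34, 0.59, 0.74, 0.66 and 0.67 from 10 to 120 min. In TFIIB HA libraries the rDNA share was 39.5% at 10 min and 10.4% to 18.1% later. In TFIIE HA libraries mitochondrial sites took 6.89% of counts at 10 min and 0.881% at 20 min, and the SD across sites was 0.54 and 0.61. The authors' western blots show the HA copy building up gradually after galactose, so early HA libraries were made at low HA protein. How much of their signal was background was not tested.

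Across the 35 member sites, the HA/Myc ratio rose at 8 and fell at 1, against 13.0% of all sites rising and 12.0% falling. For TFIIE it rose at 5 of 7 member sites and fell at 1, where 29.4% of all TFIIE sites rose and 30.9% fell. For TFIIF it rose at 2 of 7, with 19.4% of all sites rising, and for TFIIB at 1 of 8, with 0.669% of all sites rising. By edgeR's quasi-likelihood test, 0 of 7 TBP sites and 0 of 6 TFIIA sites passed, with 2 at an unadjusted p under 0.05 for each factor, and the DESeq2 Wald test called 0 and 1. Of all TBP and TFIIA sites, 7.89% and 17.0% were called.

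The Myc signal fell at 9 member sites and rose at 1, against 8.78% of all sites falling and 9.27% rising. It fell at 4 of 8 TFIIB sites (9.37% of all TFIIB sites fell, and times up to 30 min against those from 40 min gave 0 of 8), at 4 of 7 TFIIE sites (29.4%) and at 1 of 7 TBP sites (1.76%), and rose at 1 TFIIE site (30.9%). For Myc of TFIIA and TFIIF, edgeR called 0 member sites, with 2 and 3 at an unadjusted p under 0.05 and 0 and 1 called by DESeq2, where 0.407% and 0.766% of all sites were called. The HA signal rose at 3 member sites and fell at 5, against 9.82% of all sites rising and 8.68% falling. HA rose at 1 and fell at 1 of 7 TBP sites (8.87% and 7.27% of all sites), fell at 1 TFIIA site (10.2%) and 1 TFIIB site (3.05%), and rose at 2 and fell at 2 of 7 TFIIF sites (22.2% and 21.1%). For HA of TFIIE, edgeR called 0 of 7, with 2 at an unadjusted p under 0.05 and 1 called by DESeq2, where 6.82% of all sites were called.

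**Figure D2:**
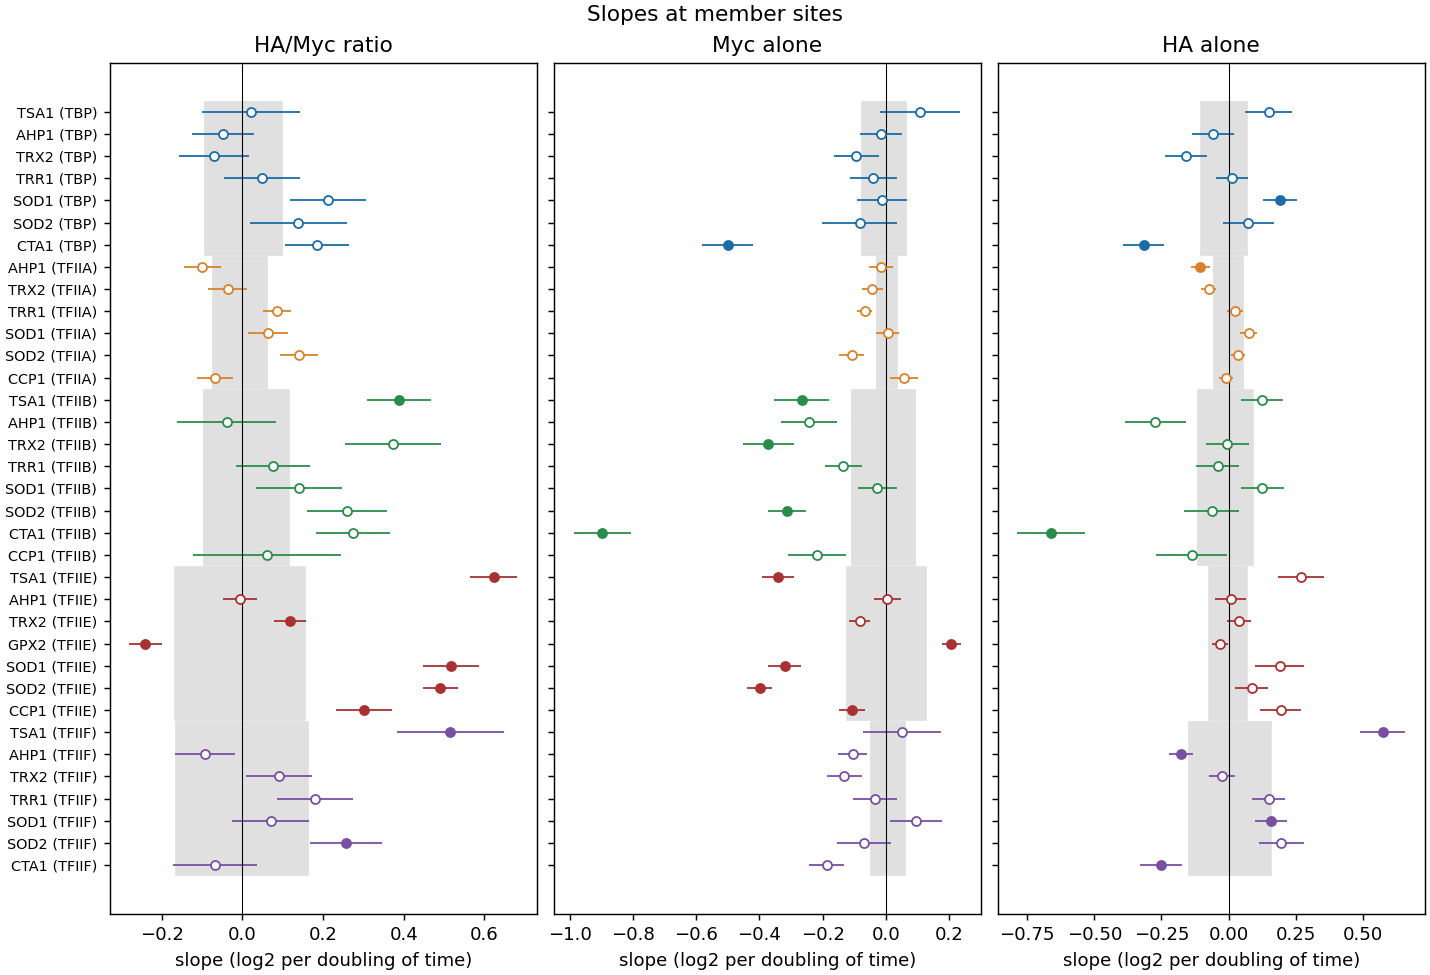
Slopes of the HA/Myc ratio, Myc alone and HA alone at the 35 member sites. The x axes are log2 change per doubling of time, bars are standard errors, filled points passed the adjusted threshold of 0.05, colours mark factors, and grey bands hold the middle 50% of all sites of that factor. CTA1 stands far to the left for Myc of TBP and TFIIB, and TSA1 lies to the right for the ratio of TFIIB, TFIIE and TFIIF.

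TSA1, the main cytosolic peroxiredoxin, had the steepest ratio slope among member sites of TFIIB, TFIIE and TFIIF. Its TFIIE Myc signal was 748, 652, 686, 681, 544, 467, 344 and 371 CPM per kb from 10 to 120 min, and its HA signal was 341, 639, 655, 781, 849, 820, 747 and 817. The Myc values of the last 3 times lay below all earlier ones, and the HA value at 10 min lay below all later ones. Against the median TFIIE site, log2(HA/Myc) was -1.13 at the first time, early in the build-up of the HA copy, and 1.16 at the last. The ratio slope was 0.62 ± 0.06 (SE, adjusted p = 1.26e-05), at percentile 99.6 of all TFIIE sites. Myc fell (slope -0.34 ± 0.05, adjusted p = 0.000612), and the HA slope of 0.27 ± 0.09 did not pass (adjusted p = 0.0869).

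The TFIIB site of TSA1 went the same way. Its Myc values were 508, 599, 414, 327, 568, 252, 336 and 312 CPM per kb and its HA values 394, 569, 547, 454, 653, 468, 633 and 578. Against the median TFIIB site its log2(HA/Myc) was -0.34 at first and 0.88 at last. The ratio rose by 0.39 ± 0.08 per doubling of time (adjusted p = 0.0193), and Myc fell (slope -0.27 ± 0.09, adjusted p = 0.0422). The Myc call of this site was lost in 9 of 17 alternatives, 6 of them with a time point left out (adjusted p from 0.0506 to 0.104), and the ratio call in 6 of 19. Of single time points, leaving out 20 min (adjusted p = 0.0604) or 90 min (adjusted p = 0.0697) ended the ratio call. The Myc library at 0 min gave 956 CPM per kb, above each later Myc value.

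At the TFIIF site of TSA1 it was the HA signal that moved. HA was 241, 337, 377, 430, 581, 892, 849 and 757 CPM per kb, so the 3 last values exceeded all earlier ones, while Myc ranged from 236 at 90 min to 631 at 60 min with no called slope (adjusted p = 0.872). HA rose with a slope of 0.57 ± 0.08 (adjusted p = 0.000323), a call kept in all 18 alternatives. The ratio slope was 0.52 ± 0.13 (adjusted p = 0.00561). It no longer passed without the 10 min libraries (0.38, adjusted p = 0.106) or without 10 and 25 min (0.40, adjusted p = 0.15). The early HA libraries had the high mitochondrial shares given above, and those from 20 to 30 min had the lowest SD across sites. Mean HA levels of the called TFIIF sites stood at percentiles 90.1 (TSA1), 42.1 (SOD1), 16.8 (AHP1) and 7.52 (CTA1) of nuclear sites outside rDNA. The part of these library differences in the TFIIF slopes was not tested further. The TBP site of TSA1 showed no called slope, and its log2(HA/Myc) against the median TBP site moved between -0.93 and 0.34 in no steady direction. This TBP site was weak, with mean levels at percentiles 11.2 (Myc) and 5.57 (HA) of nuclear TBP sites outside rDNA. Differences between factors were not tested.

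**Figure D3:**
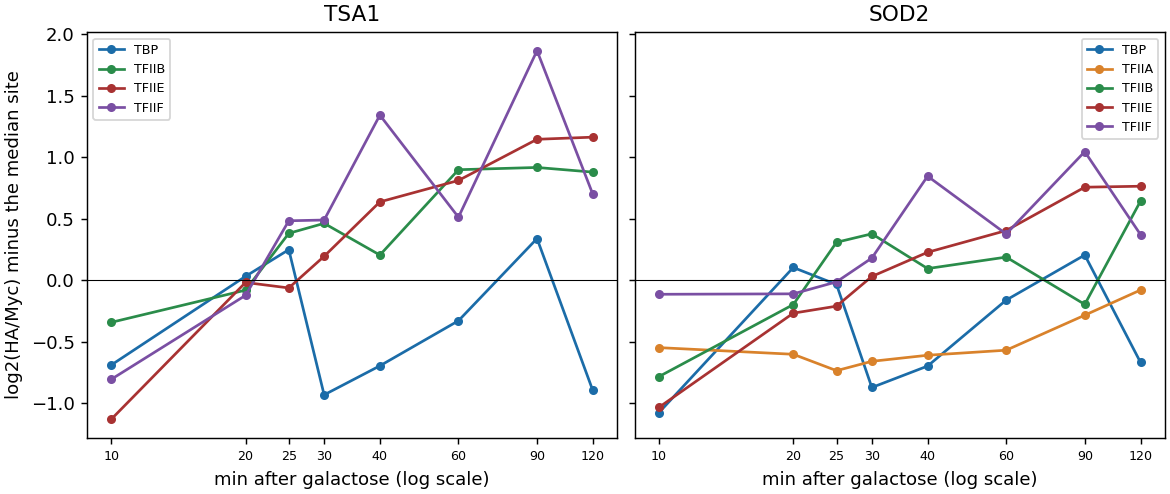
HA/Myc at the TSA1 and SOD2 sites by time. The y axis is log2(HA/Myc) less that of the median nuclear site outside rDNA in the same library pair, the x axis is min of galactose on a log scale, and each line is a factor with 1 library pair per point. For TFIIE both genes start near -1 and end above 0.7, while the TSA1 line of TBP shows no trend.

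AHP1, a peroxiredoxin that acts on alkyl hydroperoxides, had a site of each factor and no called ratio or Myc slope. Its HA signal fell for TFIIF, with 348, 312, 275, 298, 282, 248, 236 and 213 CPM per kb and a slope of -0.18 ± 0.04 (adjusted p = 0.00702). This HA slope turned to 0.22 (adjusted p = 0.194) when libraries were scaled by their total count in sites. Its HA slope for TFIIA was -0.11 ± 0.03 (adjusted p = 0.0486), a call lost in 10 of 17 alternatives, 7 of them with a time point left out (adjusted p from 0.0602 to 0.165). For TFIIE the AHP1 ratio slope was -0.01 ± 0.04, beside 0.62 at TSA1.

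TRX2, a cytosolic thioredoxin, had a falling Myc signal for TFIIB. The values were 404, 299, 233, 246, 315, 154, 144 and 191 CPM per kb, with the 3 lowest at the 3 last times, and the slope was -0.37 ± 0.08 (adjusted p = 0.00604). Without the 10 min libraries it no longer passed (-0.34, adjusted p = 0.0688). The TFIIB Myc value of TRX2 at 0 min was 316, below the 10 min value. The TFIIB HA values of TRX2 lay between 249 and 361 with a slope of 0.00 ± 0.08, and its ratio slope of 0.37 ± 0.12 did not pass (adjusted p = 0.119). For TFIIE its ratio rose by 0.12 ± 0.04 (adjusted p = 0.0223), a small slope whose call was lost in 6 of 19 alternatives, among them those without 10 min (adjusted p = 0.131) and without 120 min (adjusted p = 0.0796). TRR1, the cytosolic thioredoxin reductase that renews thioredoxin, had sites of TBP, TFIIA, TFIIB and TFIIF and no called slope of the ratio, Myc or HA with TMM scaling. Under total-count scaling all 7 TFIIF sites, TRR1 included, were called rising for the ratio. Its TMM-scaled ratio slopes ran from 0.05 for TBP to 0.18 for TFIIF.

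SOD1, the copper and zinc superoxide dismutase of the cytosol, and SOD2, the manganese enzyme of mitochondria, moved in parallel for TFIIE. Myc at SOD2 was 639, 536, 533, 484, 424, 362, 268 and 257 CPM per kb, lower at each later time than at the one before. HA at SOD2 was 312 at 10 min and 430 to 498 afterwards. Its log2(HA/Myc) against the median site was -1.03 at first and 0.76 at last, and the ratio rose by 0.49 ± 0.04 per doubling (adjusted p = 8.79e-06). Myc fell (slope -0.40 ± 0.04, adjusted p = 0.000328), and the HA slope of 0.09 ± 0.06 did not pass (adjusted p = 0.353).

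At the TFIIE site of SOD1, Myc was 478, 448, 462, 438, 377, 289, 234 and 264 CPM per kb and HA was 213, 364, 394, 438, 489, 460, 420 and 378. The Myc values of the last 3 times lay below all others. The ratio rose by 0.52 ± 0.07 (adjusted p = 8.98e-05) and Myc fell (slope -0.32 ± 0.05, adjusted p = 0.000806). This site also spans the ADO1 start. The ratio and Myc calls of TSA1, SOD1 and SOD2 for TFIIE held in every alternative fit, without the 10 min libraries included. The narrower window of 250 bp upstream left out this SOD1 site, whose midpoint lay 257.5 bp upstream. A loess offset, which removes trends shared by sites of the same average level, left smaller ratio slopes of 0.36, 0.28 and 0.28 that still passed (highest adjusted p = 0.00919). The Myc slopes shrank more under this offset, to -0.13, -0.11 and -0.21, and also still passed (highest adjusted p = 0.0322). The fall in contrast of the TFIIE Myc libraries accompanied these slopes and those of every other TFIIE site. The ratio calls of TSA1, SOD1 and SOD2 also held after subtraction of a background level, which was not run for Myc alone. Beyond the offset and this subtraction, the part of the fall in contrast in these slopes was not tested.

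**Figure D4:**
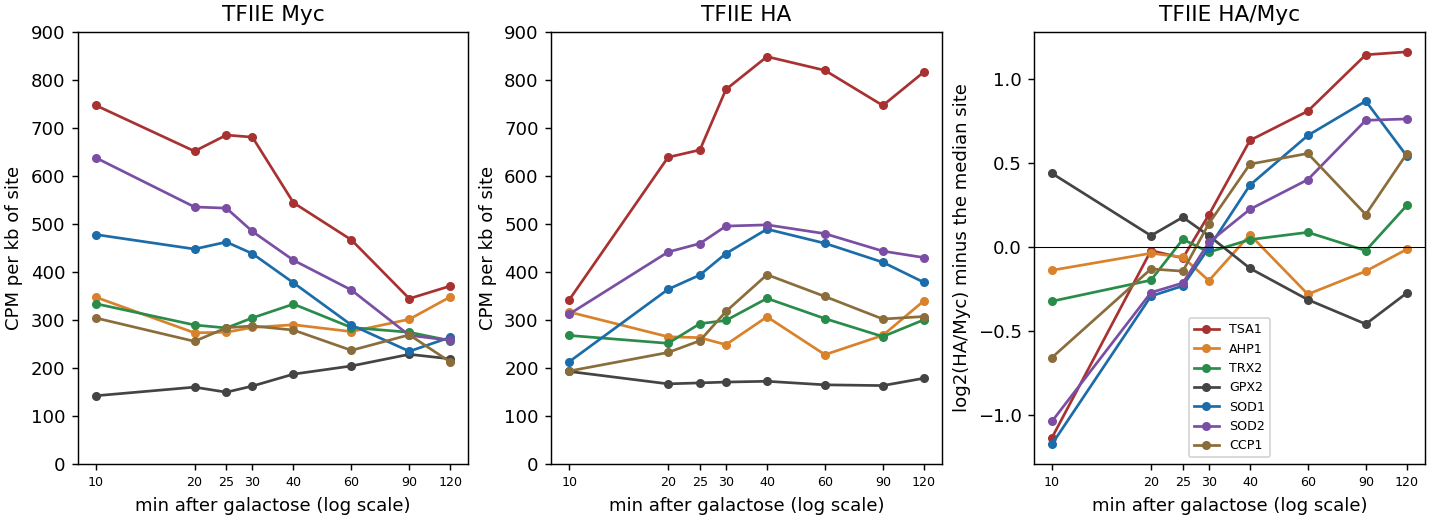
TFIIE at its 7 member sites. The left and middle panels give Myc and HA in CPM per kb of site, the right panel gives log2(HA/Myc) minus the median site, and the x axes are min of galactose on a log scale with 1 library per point. TSA1, SOD2 and SOD1 lose Myc signal from 10 to 120 min, and GPX2, a weak site, moves the other way. The SD across sites of the Myc libraries falls over the same times.

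SOD2 also had a falling TFIIB Myc signal, with 663, 693, 559, 470, 584, 362, 407 and 339 CPM per kb and a slope of -0.31 ± 0.06 (adjusted p = 0.00299). Its 0 min value was 921. Early against late times did not pass for this site (adjusted p = 0.161). The SOD2 ratio rose for TFIIF by 0.26 ± 0.09 (adjusted p = 0.0333), a call lost in 8 of 20 alternatives, including those without 10 and 25 min (adjusted p = 0.194), 10 min (0.115), 20 min (0.0778) and 90 min (0.146). SOD2 for TFIIA came near the threshold with 0.14 ± 0.05 (adjusted p = 0.0617). SOD1 HA rose slightly for TBP (0.19 ± 0.06, adjusted p = 0.0488) and TFIIF (0.16 ± 0.06, adjusted p = 0.044). Neither SOD1 HA call was firm: the TBP call was lost without any single time point (adjusted p from 0.0524 to 0.145), and the TFIIF call was lost in 10 of 18 alternatives and changed sign under the loess offset (-0.07, adjusted p = 0.268).

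CTA1, catalase A of peroxisomes and mitochondria, lost both copies of a factor with time in galactose. TFIIB Myc at CTA1 was 1122, 681, 774, 609, 524, 384, 163 and 128 CPM per kb, an 8.79-fold decrease from 10 to 120 min. TFIIB HA was 588, 773, 700, 726, 495, 374, 200 and 161, so both tags were lowest at 120 min and next lowest at 90 min. Myc fell (slope -0.90 ± 0.09, adjusted p = 1.33e-05) and the HA slope was -0.66 ± 0.13 (adjusted p = 0.00694). They lay at percentiles 0.248 and 0.149 of all TFIIB sites. Without the 90 min library the HA slope was -0.59 and just missed the threshold (adjusted p = 0.0518). Early against late times did not pass for either tag (adjusted p = 0.0804 for Myc and 0.143 for HA). The TFIIB Myc value at 0 min was 568, below the 10 min value.

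TBP at CTA1 showed the same direction. TBP Myc was 637, 499, 336, 230, 213, 206, 234 and 179 CPM per kb, and TBP HA was 306, 353, 225, 202, 163, 158, 143 and 189. Most of the decrease lay before 30 min, and the values from 30 to 120 min varied within 143 to 234. Myc fell (slope -0.50 ± 0.08, adjusted p = 0.00735) and HA fell too (slope -0.32 ± 0.08, adjusted p = 0.00853). Without the 10 min libraries, Myc of TBP no longer passed (-0.43, adjusted p = 0.0908). TFIIF HA at CTA1 also fell, with 268, 284, 395, 275, 262, 208, 185 and 177 CPM per kb and a slope of -0.25 ± 0.08 (adjusted p = 0.0195), but this slope was 0.15 (adjusted p = 0.379) after scaling by the total count in sites, and it missed the threshold without 90 min (adjusted p = 0.0703) or 120 min (adjusted p = 0.0841). Its TFIIF Myc slope of -0.19 ± 0.06 did not pass (adjusted p = 0.163).

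With both tags falling, the HA/Myc ratio at CTA1 was not called for any factor. The ratio slope was 0.18 ± 0.08 for TBP (adjusted p = 0.16), 0.27 ± 0.09 for TFIIB (adjusted p = 0.132) and -0.07 ± 0.11 for TFIIF (adjusted p = 0.639). The CTA1 window holds TATAAA 196 and 130 bases upstream, and both lie inside the sites of the 3 factors. A Yap1 element 277 bases upstream lies outside all 3 sites.

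**Figure D5:**
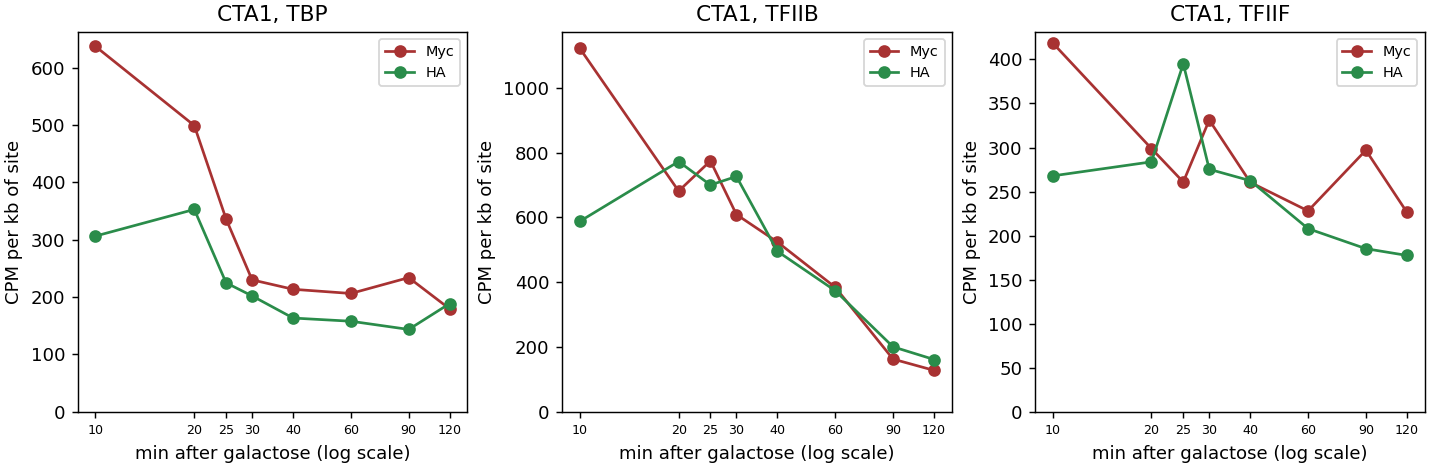
Myc and HA at the CTA1 sites of TBP, TFIIB and TFIIF. The y axes give CPM per kb of site and start at 0, the x axes give min of galactose on a log scale, and each point is 1 library. For TFIIB both tags end below 170 CPM per kb, from 1122 (Myc) and 588 (HA) at 10 min.

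CCP1, the cytochrome c peroxidase of mitochondria, followed the dismutases for TFIIE with smaller slopes. Its Myc values were 304 at 10 min and 212 at 120 min, and its HA values were 193 and 307 CPM per kb. The ratio rose by 0.30 ± 0.07 (adjusted p = 0.00273), and Myc fell (slope -0.11 ± 0.04, adjusted p = 0.0398), the latter call lost in 7 of 17 alternatives, 5 of them with a time point left out (adjusted p up to 0.259 without 120 min). CCP1 had no called slope for TFIIA or TFIIB, where its ratio slopes were -0.07 ± 0.04 and 0.06 ± 0.18.

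The TFIIE site assigned to GPX2, which encodes a glutathione peroxidase-like enzyme acting on lipid hydroperoxides, was the single member site whose ratio fell. Myc was 142, 160, 149, 162, 187, 204, 228 and 219 CPM per kb, with all values from 40 min above all earlier ones. HA stayed between 163 and 193. The ratio fell (slope -0.24 ± 0.04, adjusted p = 0.000381) and Myc rose with a slope of 0.21 ± 0.03 (adjusted p = 0.000612). This site was weak, with a mean Myc level at percentile 0.771 of all nuclear TFIIE sites outside rDNA. The fall in contrast of the TFIIE Myc libraries accompanied this Myc rise, and beyond the loess offset the part of contrast was not tested. After subtraction of a background level, fitted with limma, the GPX2 ratio slope of -1.89 no longer passed (adjusted p = 0.351). That level was percentile 5 of counts per bp in each library, and lower values were set to a small fixed floor. The mean GPX2 levels stood below percentile 5 for both tags (1.66 for HA), so this run cannot decide the GPX2 slope.

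The order of the genes by mean Myc level differed between factors. For TBP it was CTA1, TRX2, AHP1, SOD2, TSA1, SOD1 and TRR1, from 317 to 158 CPM per kb, and only CTA1 lay above the median site of 289. For TFIIA it was SOD2, SOD1, AHP1, TRX2, TRR1 and CCP1, from 434 to 280. For TFIIB it was CTA1, SOD2, TSA1, SOD1, TRR1, TRX2, AHP1 and CCP1, from 548 to 185. For TFIIE it was TSA1, SOD2, SOD1, AHP1, TRX2, CCP1 and GPX2, from 562 to 181, and TSA1 stood at percentile 93.2 of nuclear sites outside rDNA. For TFIIF it was TSA1, SOD2, AHP1, TRX2, TRR1, CTA1 and SOD1, from 370 to 263. Neighbours in each order overlapped in their ranges over the 8 times, except TRX2 above TRR1 for TFIIA.

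A wider list of 34 genes of the same defence, among them glutaredoxins, glutathione enzymes, NADPH-producing enzymes and the regulators YAP1, SKN7, MSN2 and MSN4, had 131 sites for 33 genes. The ratio rose at 16 and fell at 13 of these sites, Myc rose at 10 and fell at 15, and HA rose at 7 and fell at 6. As shares of the 131 sites, the ratio, Myc and HA rose at 12.2%, 7.63% and 5.34% and fell at 9.92%, 11.5% and 4.58%. Over all sites of the 5 factors the shares were 13.0%, 9.27% and 9.82% rising and 12.0%, 8.78% and 8.68% falling. For TFIIE the ratio rose at 9 of 28 and fell at 8, close to the shares of all TFIIE sites. The steepest TFIIE rises were at GND1 (0.61 ± 0.07, adjusted p = 2.60e-05) and ZWF1 (0.59 ± 0.06, adjusted p = 1.78e-05), both enzymes of the pentose phosphate pathway, which makes NADPH. The steepest falls were at TRX3, a mitochondrial thioredoxin (-0.26 ± 0.05, adjusted p = 0.00131), and DOT5, a nuclear peroxiredoxin (-0.23 ± 0.05, adjusted p = 0.00159).

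For TFIIF the ratio rose most at GND1 (0.69 ± 0.12, adjusted p = 0.000361) and at GRX2, a glutaredoxin (0.34 ± 0.09, adjusted p = 0.00561). It fell most at GSH2, glutathione synthetase (-0.32 ± 0.08, adjusted p = 0.00603), and at GRX3, another glutaredoxin (-0.31 ± 0.08, adjusted p = 0.00713). The TFIIF site of GRX3 also overlaps a tRNA gene, whose start lay 176.5 bp from the midpoint against 117.5 bp for GRX3. That of GRX2 also overlaps EMI1, with starts 146 bp (EMI1) and 100 bp (GRX2) from the midpoint. For TFIIB the Myc signal fell at 6 of 27 sites, where 9.37% of all TFIIB sites fell, and rose at 2, GND1 (slope 0.19) and CCS1, the copper chaperone of SOD1 (slope 0.24). It fell most at GPX1, a glutathione peroxidase-like gene (-0.59 ± 0.07, adjusted p = 5.86e-05), and at PRX1, a mitochondrial peroxiredoxin (-0.36 ± 0.08, adjusted p = 0.00675). The TFIIB ratio rose at GPX1 (0.40 ± 0.08, adjusted p = 0.012). For TFIIA the ratio rose at ZWF1 (0.26 ± 0.07, adjusted p = 0.0232) and fell at TRX1 (-0.22 ± 0.05, adjusted p = 0.019) and GTT2, a glutathione transferase (-0.19 ± 0.05, adjusted p = 0.0351). The TBP ratio rose at the GRX3 site (0.83 ± 0.16, adjusted p = 0.00196), which also covers a tRNA gene whose start lay 89 bp from the midpoint, against 205 bp for GRX3.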

How the data were processed

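The authors mapped competition ChIP-seq reads with Bowtie2 2.2.6 to sacCer3, called peaks with MACS2 2.1.0.20151222 on several early Myc libraries against input, joined overlapping peaks of each factor, and used bedtools to count reads in the joined intervals. The deposited values were raw read counts with no scaling. Merging sets site width and midpoint, so 1 interval can span several starts. Of 95 samples, 81 count columns were used (40 HA, 41 Myc). Not analysed here were 10 input libraries and 4 Myc libraries of 0 min, and protein levels were not used here, so sites were read relative to the typical site and no residence time was estimated.

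Coordinates of sites are as in the files, and starts came from RefSeq R64. In edgeR 4.0.16 (R 4.3.3), sites with a mean of at least 10 counts were fitted per factor by quasi-likelihood with TMM scaling, and Benjamini-Hochberg adjustment ran across all sites of the factor (threshold 0.05). The ratio fit used 16 libraries with time as a block, tag, and tag by log2(time). Myc and HA were fitted alone on log2(time). Each fit had 6 residual degrees of freedom. The quasi-likelihood fit also drew on the variance of the factor's other sites, so p-values do not rest on these 6 alone. A standard error is the slope divided by the square root of its F statistic. The ratio fit was also tested on simulated counts with constant site shares apart from added slopes. Those counts held no changes in contrast or in rDNA and mitochondrial shares, so they cannot show how such changes affect the calls.

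The member genes, the wider list and the motifs were chosen with earlier results of these data known. All members were named, and from the wider list at most the 2 largest rises and 2 largest falls per factor past the threshold in the ratio or Myc fit. Alternatives were DESeq2 1.42.0 size factors and Wald test, total-count scaling, TMM over nuclear sites outside rDNA, a loess offset, no count filter, a minimum mean of 50, linear time, times up to 30 min against those from 40 min, each time left out and, for the ratio, no time block and a subtracted background with limma 3.58.1. A narrower window of 250 bp upstream to 100 bp downstream was also tried. Leaving out 10 and 25 min for TFIIF and the 8-letter TATA consensus were added after seeing the data. Python 3.11.15, numpy 2.4.6, pandas 2.3.3 and matplotlib 3.10.9 were used.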

Additional observations from a re-analysis of the deposited data

How the results depend on the processing

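Of 483 alternative values for the 27 called member slopes, 392 kept direction and call, 88 kept direction and lost the call, and 3 changed sign. All 27 kept their call with no count filter and with a minimum mean of 50, but every member site passes these filters, so they test little. Linear time lost 11 calls, early against late times 12, and leaving out 10 min 10. The values that changed sign were few. The 3 that changed sign were HA slopes of TFIIF: AHP1 (0.22) and CTA1 (0.15) under total-count scaling, and SOD1 (-0.0734) under the loess offset.

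Counts of member sites called moved as follows, by edgeR except where another tool is named, and where no setting is named they stayed within 1.5 times the reported count. Total-count scaling gave 4 TBP, 0 TFIIA and 0 TFIIF falls and 0 TBP, 3 TFIIA and 5 TFIIF rises of HA, and 3 TFIIA and 7 TFIIF rises of the ratio. Linear time gave 0 TBP and 0 TFIIA falls and 0 TBP and 1 TFIIF rises of HA, 0 TBP falls of Myc, and 1 TFIIA, 0 TFIIB, 3 TFIIE and 0 TFIIF rises of the ratio. Early against late times gave 0 TFIIA, 0 TFIIB and 1 TFIIF falls and 0 TBP rises of HA, 0 TBP and 0 TFIIB falls of Myc, and 0 TFIIB rises of the ratio. TMM over nuclear sites gave 0 TBP rises of HA. The loess offset gave 1 TFIIF fall and 1 TFIIF rise of HA, and 1 TFIIA fall and 1 TFIIF rise of the ratio. The DESeq2 Wald test gave 2 TFIIA falls, 1 TFIIA rise and 1 TFIIE rise of HA, 1 TFIIF fall of Myc and 1 TFIIA rise of the ratio. For the ratio, no time block gave 0 TFIIB and 1 TFIIF rises, and background subtraction with limma gave 0 TFIIE falls and 0 TFIIB and 0 TFIIF rises. Without 10 and 25 min, TFIIF had 1 rise of HA and 0 of the ratio.

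Leaving out 1 time point at a time, HA falls ran from 0 to 2 for TFIIA, 0 to 1 for TFIIB and 1 to 2 for TFIIF, and HA rises were 0 throughout for TBP and ran from 1 to 2 for TFIIF. Myc falls ran from 0 to 1 for TBP, 2 to 4 for TFIIB and 0 to 1 for TFIIF, and Myc rises from 1 to 2 for TFIIE. Ratio falls ran from 0 to 1 for TFIIA, and ratio rises from 0 to 1 for TBP, TFIIA and TFIIB and from 0 to 3 for TFIIF. The narrower window kept 7 TBP, 5 TFIIA, 7 TFIIB, 5 TFIIE and 6 TFIIF sites. It left out the SOD1 sites of TFIIA, TFIIB, TFIIE and TFIIF and the GPX2 site of TFIIE. With 1 library per time point, the causes of these changes were not tested.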

Other observations

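At the start of TRR1, the merged TFIIE interval left out by the midpoint rule spans from 1182808 to 1184892 on chromosome IV. Its ratio slope was 0.21 ± 0.05 (adjusted p = 0.00239 by edgeR's quasi-likelihood test) and its Myc slope -0.25 ± 0.05 (adjusted p = 0.00217), so the ratio rose and Myc fell there as at TSA1, SOD1, SOD2 and CCP1. At the start of TSA1, the TFIIA interval from 219681 to 221577 on chromosome XIII had a ratio slope of 0.03 ± 0.06 (adjusted p = 0.767) and no called Myc or HA slope. These 2 intervals were looked at after the sites had been assigned.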
